A study of Mus musculus with 6 samples.

Results

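Genes of endothelial-type cell junctions were examined in sorted mouse marrow cells of the SLAM-LSK phenotype (CD150+, CD48-, lineage-, Sca-1+, c-Kit+), a gate used to collect blood-forming stem cells. The members were taken by symbol: Tjp1, Tjp3, F11r, Jam2, Jam3, Esam, Tie1 and Pecam1 were 8 of the 18465 genes in the table, and the ninth listed symbol, Cdh5, the cadherin of endothelial adherens junctions, was not analysed here. The list was selected on the TPM values of this same genotype comparison, with the level of Tjp1 known to differ, so the genotype values of the members below are a description and carry no test. The cells came from 3 libraries of MecomWT:R751W mice, which carry the R751W allele of Mecom beside a wild-type one, and 3 libraries of wild-type (WT) mice, all C57BL/6. Mecom encodes a zinc finger transcription factor needed by stem cells. No treatment, age or sex is given in the labels, and the replicates are labelled biological without saying that each is a separate animal. A p-value here reflects only how these 6 libraries vary. Mecom itself was at 50.9, 39.9 and 44.0 TPM in MecomWT:R751W libraries and at 42.9, 34.9 and 36.9 TPM in WT libraries, with overlapping groups, and TPM of the gene does not tell the alleles apart.

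Junctions between neighbouring endothelial cells are built from transmembrane adhesion proteins whose cytoplasmic tails bind scaffold proteins, which in turn bind actin. ZO-1, encoded by Tjp1, is such a scaffold. It holds PDZ domains, modules that grip the tails of claudins and junctional adhesion molecules (JAMs). Haematopoietic stem cells arise from endothelium in the embryo and keep part of its surface proteins: Esam, Pecam1 and the receptor Tie1 are known on both cell types, although blood stem cells form no tight junctions.

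The annotated start regions of the member that differed most between genotypes, of its paralog and of the most abundant member are shown with the letters searched in capitals. Sequences are from RefSeq on GRCm38.p6, which had entries for 4 of the members, and span 250 bases before to 50 bases after a start, in the direction of transcription. Tjp1 is chr7:65371195-65371494, minus strand. Tjp3 is chr10:81291532-81291831, minus strand. Tie1 is chr4:118489800-118490099, minus strand.
Tjp1: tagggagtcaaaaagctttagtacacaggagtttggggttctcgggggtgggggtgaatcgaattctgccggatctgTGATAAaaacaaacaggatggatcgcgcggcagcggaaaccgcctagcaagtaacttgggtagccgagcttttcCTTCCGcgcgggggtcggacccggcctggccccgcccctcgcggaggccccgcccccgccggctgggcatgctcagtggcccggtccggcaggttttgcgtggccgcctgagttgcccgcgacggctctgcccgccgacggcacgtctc
Tjp3: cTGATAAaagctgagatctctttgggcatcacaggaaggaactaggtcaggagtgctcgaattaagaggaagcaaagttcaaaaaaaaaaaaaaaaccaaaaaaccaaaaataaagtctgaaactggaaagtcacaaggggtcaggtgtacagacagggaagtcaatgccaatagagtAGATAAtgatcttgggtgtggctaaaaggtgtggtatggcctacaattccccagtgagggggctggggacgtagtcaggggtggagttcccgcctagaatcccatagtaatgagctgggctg
Tie1: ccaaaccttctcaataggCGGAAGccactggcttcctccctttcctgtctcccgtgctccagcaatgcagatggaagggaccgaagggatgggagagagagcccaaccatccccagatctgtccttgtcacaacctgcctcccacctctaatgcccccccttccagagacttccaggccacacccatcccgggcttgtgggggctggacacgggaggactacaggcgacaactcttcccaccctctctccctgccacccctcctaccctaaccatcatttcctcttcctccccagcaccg
Capitals mark AGATAA or TGATAA, the letters that GATA factors bind, and CGGAAG, a core bound by ETS factors, on either strand. The Tjp1 region held 1 match of each kind, and no capitals of the 2 kinds overlap. The first Tjp3 region held 2 GATA matches and the Tie1 region 1 ETS match. Among all 32851 regions of the same length, 18.6% held a GATA match and 16.9% an ETS match, so these are common letters and are given only as a description. The Tjp1 start lies 156606 bases inside the gene, at a shorter transcript, and gene totals do not tell which start was used. The Tjp1 region held 31 CpG dinucleotides, against 3 in this Tjp3 region, 7 in the Tie1 region and a median of 7 over all regions. Not shown are the F11r region, with 19 CpG, and another Tjp3 region, with 9. Neither held a GATA or ETS match.

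Tjp1 was the member with the widest gap between genotypes. It lies on chromosome 7 from 65296165 to 65527850 in GRCm38. Its level was 10.4, 10.7 and 7.29 TPM in MecomWT:R751W replicates 1, 2 and 3, against 4.00, 3.56 and 4.55 TPM in WT replicates 1, 2 and 3. TPM, the unit of the authors' table, corrects reads for the length of the gene and gives every library an equal sum. All 3 MecomWT:R751W libraries lay above all 3 WT libraries, with replicate 3 the lowest of the mutant group. The means were 9.49 ± 1.91 TPM in MecomWT:R751W and 4.04 ± 0.498 TPM in WT (SD, n = 3 each), a ratio of 2.35. On the log2(TPM + 1) scale, which understates changes of low genes, the difference was 1.05 (SE 0.19). The values rested on 649, 738 and 528 implied reads in MecomWT:R751W and 259, 252 and 337 in WT, where implied reads are the whole numbers that the TPM ratios within a gene point to. Counting error alone gives a spread of 3.68% to 6.30% of the level for Tjp1 at these numbers, while its libraries varied by 20.2% in MecomWT:R751W and 12.3% in WT. In bulk RNA, more cells that express a gene and more RNA per cell cannot be told apart.

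Tjp3, which encodes the scaffold ZO-3, known mainly from epithelia, lies on chromosome 10 from 81273188 to 81291581. It was at 4.88, 3.30 and 5.83 TPM in MecomWT:R751W libraries and at 4.54, 2.80 and 3.82 TPM in WT libraries. The groups overlapped, and replicate 2 was the lowest library of each genotype. The log2 difference was 0.26 (SE 0.22). Over 40 bases the exons of Tjp3 overlap those of Apba3 on the other strand, and the sources used here do not state whether counting used strand.

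**Figure D1:**
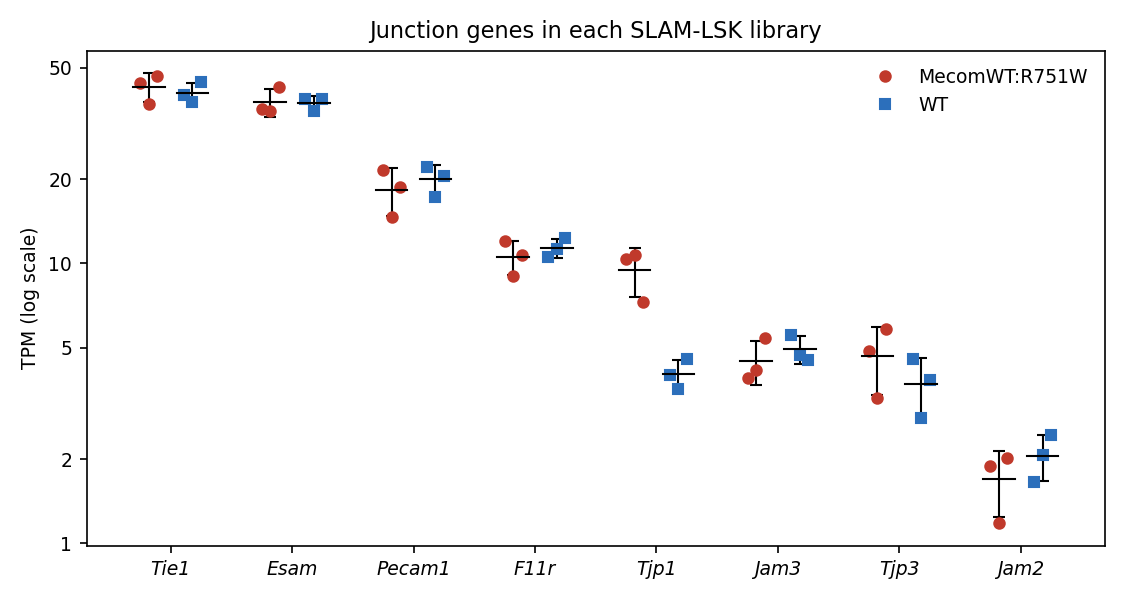
TPM of the 8 junction genes on a log axis, ordered by mean level, with MecomWT:R751W libraries as red circles and WT libraries as blue squares, black lines at the mean and bars of 1 SD (n = 3 each). Tjp1 is the gene whose groups stand apart (7.29 to 10.7 TPM in MecomWT:R751W against 3.56 to 4.55 TPM in WT), and the groups of the other 7 overlap.

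The JAM genes encode immunoglobulin-type adhesion proteins that bind one another across cell borders and carry tails that bind PDZ scaffolds such as ZO-1. F11r, which encodes JAM-A and lies on chromosome 1 from 171437561 to 171464593, was at 12, 9.0 and 10.7 TPM in MecomWT:R751W and at 10.5, 11.3 and 12.3 TPM in WT. The groups overlapped, with a log2 difference of -0.10 (SE 0.16). Jam3, which encodes JAM-C and lies on chromosome 9 from 27097384 to 27155421, was at 3.90, 4.17 and 5.41 TPM in MecomWT:R751W and at 5.57, 4.70 and 4.52 TPM in WT. These groups overlapped too (log2 difference -0.12, SE 0.18). An antisense gene, Gm48796, covers 1159 bases of the Jam3 exons, and reads of the pair cannot be told apart without strand.

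Jam2, which encodes JAM-B and lies on chromosome 16 from 84774123 to 84826380, was the least abundant member. It was at 1.89, 1.18 and 2.01 TPM in MecomWT:R751W and at 1.66, 2.06 and 2.44 TPM in WT, with overlapping groups and a log2 difference of -0.19 (SE 0.21). At 49 to 109 implied reads per library its counting error was 9.58% to 14.3%, the widest of the members. Shares within the family were alike in both genotypes. F11r took 63.0% ± 4.21 of the JAM sum in MecomWT:R751W and 61.8% ± 2.47 in WT. Jam3 took 27.0% ± 4.35 in MecomWT:R751W and 27.0% ± 4.12 in WT, and Jam2 took 8.2% to 11.1% in MecomWT:R751W and 9.4% to 12.6% in WT (± SD, n = 3 each).

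**Figure D2:**
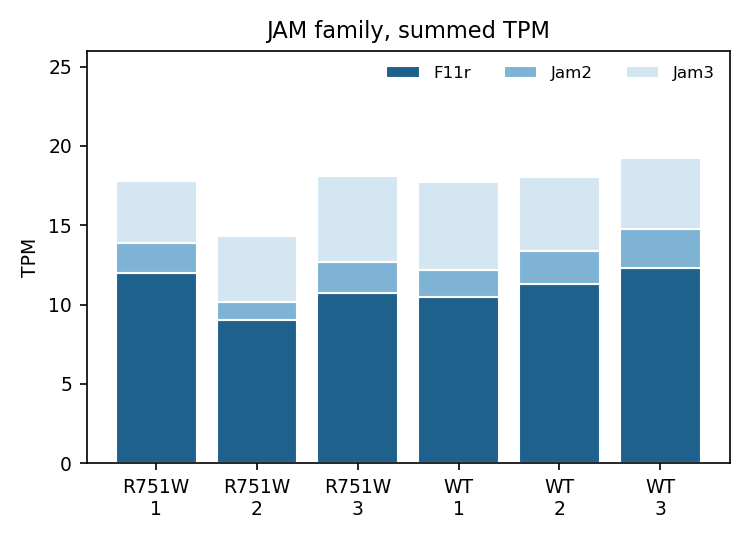
Stacked TPM of the JAM genes F11r, Jam2 and Jam3 in the 3 MecomWT:R751W libraries (R751W 1 to 3) and the 3 WT libraries (WT 1 to 3). F11r is the tallest segment of every bar, with 63.0% ± 4.21 of the sum in MecomWT:R751W and 61.8% ± 2.47 in WT (SD, n = 3 each).

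Esam, a relative of the JAMs used as a stem cell surface marker, lies on chromosome 9 from 37528089 to 37538319, the chromosome that also holds Jam3. It was at 35.7, 34.9 and 42.8 TPM in MecomWT:R751W and at 38.7, 34.9 and 38.7 TPM in WT. The group means were 37.8 ± 4.38 TPM in MecomWT:R751W and 37.4 ± 2.18 TPM in WT (SD, n = 3 each), and the log2 difference was 0.01 (SE 0.13). Pecam1, the adhesion protein CD31 of endothelium, platelets and leukocytes, lies on chromosome 11 from 106654213 to 106715281. It was at 21.6, 14.6 and 18.8 TPM in MecomWT:R751W and at 22.1, 17.3 and 20.5 TPM in WT. Replicate 2 was again the lowest library of each genotype, the groups overlapped, and the log2 difference was -0.13 (SE 0.17).

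Tie1, an orphan receptor tyrosine kinase that pairs with the angiopoietin receptor Tek at endothelial contacts, was the most abundant member. It lies on chromosome 4 from 118471191 to 118489849. Its level was 44.2, 37.1 and 46.9 TPM in MecomWT:R751W and 39.9, 37.6 and 44.3 TPM in WT, with overlapping groups and a log2 difference of 0.07 (SE 0.14). It rested on 1147 to 1528 implied reads per library, so counting error was 2.56% to 2.95%, against a spread among libraries of 11.8% in MecomWT:R751W and 8.39% in WT.

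Ordered by mean TPM over the 6 libraries, the members were Tie1 (41.7), Esam (37.6), Pecam1 (19.2), F11r (11), Tjp1 (6.76), Jam3 (4.71), Tjp3 (4.19) and Jam2 (1.87). Ranges over the libraries did not overlap between Esam and Pecam1, between Pecam1 and F11r, or between Tjp3 and Jam2. Tie1 exceeded Esam in 6 of 6 libraries although their ranges overlapped. The ranges of F11r and Tjp1, Tjp1 and Jam3, and Jam3 and Tjp3 overlapped as well. In MecomWT:R751W replicate 2 Tjp1 stood above F11r, and in WT replicates 1, 2 and 3 it was near Jam3 or below it. Among 12552 protein-coding genes, Tie1 and Esam were at percentiles 89.6 and 88.0 of mean level, Tjp1 at 40.0 and Jam2 at 15.7.

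Tjp3, Esam, Tie1 and Pecam1 were lowest in replicate 2 of both genotypes, and the share of all protein-coding rows followed the same libraries. That share was 29.73%, 26.02% and 28.89% of TPM in MecomWT:R751W replicates 1, 2 and 3 and 30.11%, 25.87% and 28.88% in WT replicates 1, 2 and 3. On TPM as deposited, 20 of the 21 pairs among the members other than Tjp1 correlated above 0 over the 6 libraries, with a median r of 0.56. After rescaling to the protein-coding total it was 12 of 21 pairs, with a median r of 0.21. The pairs share libraries and this scale, so the values are descriptive. On the rescaled values Tjp1 was at 33.9 ± 8.10 in MecomWT:R751W and 14.3 ± 1.31 in WT (SD, n = 3 each), a ratio of 2.37, and the groups of the other 7 members still overlapped.

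The test across all genes was limma on log2(TPM + 1), with p-values adjusted by the Benjamini-Hochberg method and a threshold of 0.05. Among the 16655 rows that averaged 1 TPM or more it called 0 genes, which is 0.0% (457 higher and 538 lower at an unadjusted p under 0.05), and so 0 of the 8 members. Over the 11394 protein-coding rows it called 132 genes, 1.16% (0.351% higher and 0.807% lower), and 1 of the 8 members, Tjp1. Nothing is read from that count, since the comparison chose the gene. The protein-coding fit gave the common variance trend 102 prior degrees of freedom against 4 of the gene itself, so the spread of a single gene enters it little. The groups did not overlap for 1 of the 8 members, against 9.19% of all rows (4.5% higher, 4.7% lower) and 9.05% of protein-coding rows (4.21% higher, 4.84% lower). The median log2 difference of the members was -0.05, with 4 above 0 and 4 below, and that of all genes tested was -0.0037.

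By Pearson correlation of log2(TPM + 1) over the 6 libraries, the genes most like Tjp1 among 8476 protein-coding genes that averaged 5 TPM or more were Tipin (r = 0.987), Nkg7 (0.982), Mns1 (0.979), Ccnb1 (0.970) and F2rl3 (0.965). Tipin acts at replication forks, Nkg7 is a granule protein of cytotoxic lymphocytes, Ccnb1 is the mitotic cyclin B1 and F2rl3 is the thrombin receptor PAR4. Nkg7 was at 12.1, 12 and 9.51 TPM in MecomWT:R751W and at 4.76, 3.89 and 4.30 TPM in WT. These genes were picked for their likeness to Tjp1, which was itself chosen for its genotype difference, so their genotype difference and library order restate that choice. Tipin differed far less in size, at 38.0 ± 0.689 TPM in MecomWT:R751W and 32.6 ± 0.530 TPM in WT (SD, n = 3 each). No other member was among the 5. Their r with Tjp1 ran from -0.59 (Jam3) to 0.32 (Tjp3), over the same 6 libraries.

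Other genes of the same junctions were described as lists. Of 23 genes for tight junction scaffolds and polarity proteins, 15 were tested, 8 of them above 0 and 7 below, with a median log2 difference of 0.01, and 0 passed in either fit. The most abundant were Ybx3, a factor held at junctions by ZO-1, at 142 ± 9.17 TPM in MecomWT:R751W and 135 ± 24.3 TPM in WT, and the scaffold Dlg1 at 26.0 ± 2.43 TPM in MecomWT:R751W and 27.3 ± 3.49 TPM in WT (SD, n = 3 each). Afdn, the afadin that links nectins to actin, was at 13.8 ± 1.41 TPM in MecomWT:R751W and 14.5 ± 2.98 TPM in WT. Cttn, the actin-binding cortactin, was at 15.9 ± 1.84 TPM in MecomWT:R751W and 15.8 ± 1.32 TPM in WT. Pard3b was at 7.76, 7.20 and 7.82 TPM in MecomWT:R751W and at 8.63, 8.20 and 9.49 TPM in WT, each mutant library below each WT library. It was 1 of the 15 whose groups did not overlap, beside 9.19% of all rows.

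Of 32 claudins, occludin and tricellular proteins, the strands of the tight junction itself, 6 were tested and 0 passed in either fit (3 above 0, 3 below, median 0.05). These were Lsr, Cldn12, Marveld2, Cldn20, Cldn22 and Ocln, and their summed level was 20.9, 19.3 and 20.9 TPM in MecomWT:R751W and 19.7, 17.5 and 21.5 TPM in WT. Ocln was at 1.16, 1.08 and 0.698 TPM in MecomWT:R751W and at 1.41, 1.32 and 1.81 TPM in WT, each mutant library below each WT library. It was 1 of the 6 whose groups did not overlap, beside 9.19% of all rows. Of 22 nectins, CTX proteins and related adhesion genes, 9 were tested and 0 passed (3 above 0, 6 below, median -0.12). The most abundant was Icam2, an integrin ligand of endothelium and blood cells, at 24.6 ± 3.63 TPM in MecomWT:R751W and 28.0 ± 2.09 TPM in WT.

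Among 19 cadherins and catenins, 9 were tested, with 5 above 0, 4 below and a median of 0.04. Dsg2, a desmosomal cadherin, passed over protein-coding rows (adjusted p = 0.041 by limma) but not over all rows (adjusted p = 0.431). It was at 4.95, 4.04 and 3.67 TPM in MecomWT:R751W and at 2.45, 1.75 and 2.44 TPM in WT, so the groups did not overlap, and the log2 difference was 0.70 (SE 0.19). Dsg2 was 1 of the 9 that passed as higher, beside 0.351% of all protein-coding rows tested. Dsg2 was also 1 of the 9 whose groups did not overlap, beside 9.19% of all rows. Its call held in 6 of 16 alternatives (adjusted p from 0.0246 to 0.31 by limma) and was lost without MecomWT:R751W replicate 1 or 2 and without WT replicate 1 or 2. The call was also lost, among others, when median-centred, quantile-normalized or rescaled to the protein-coding total. The catenins that carry cadherin tails were abundant and did not pass: Ctnnb1 was at 97.7 ± 11.2 TPM in MecomWT:R751W and 91.8 ± 6.27 TPM in WT, and Ctnna1 at 37.7 ± 3.08 TPM in MecomWT:R751W and 39.1 ± 5.90 TPM in WT.

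Of 19 genes for ligands, receptors and phosphatases that bind the members, 14 were tested and 0 passed (6 above 0, 8 below, median -0.01). Angpt1, the ligand of Tek, was at 241 ± 19.6 TPM in MecomWT:R751W and 271 ± 37.9 TPM in WT. Tek itself was at 17.7, 12.3 and 16.9 TPM in MecomWT:R751W and at 18.3, 18.2 and 19.0 TPM in WT, each mutant library below each WT library, without passing either fit (adjusted p = 0.984 and 0.864 by limma). Itgb2, an integrin chain of leukocytes, was at 15, 14.8 and 20 TPM in MecomWT:R751W and at 14.5, 11.5 and 14.2 TPM in WT, each mutant library above each WT library, and did not pass either (adjusted p = 0.94 and 0.73 by limma). These 2 of 14 stand beside the 9.19% of all rows whose groups did not overlap. Ptpn6, the phosphatase SHP-1 that docks on Pecam1, was at 91.4 ± 10.6 TPM in MecomWT:R751W and 91.8 ± 6.80 TPM in WT. The RAP1 and CCM regulators, which control how firmly endothelial junctions hold, had 17 of 18 genes tested, 12 above 0 and 5 below, a median of 0.05, and 0 passed. Rap1b was at 164 ± 28.1 TPM in MecomWT:R751W and 196 ± 37.6 TPM in WT, and Heg1, a receptor of the CCM complex, at 28.5 ± 1.75 TPM in MecomWT:R751W and 27.7 ± 1.74 TPM in WT.

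**Figure D3:**
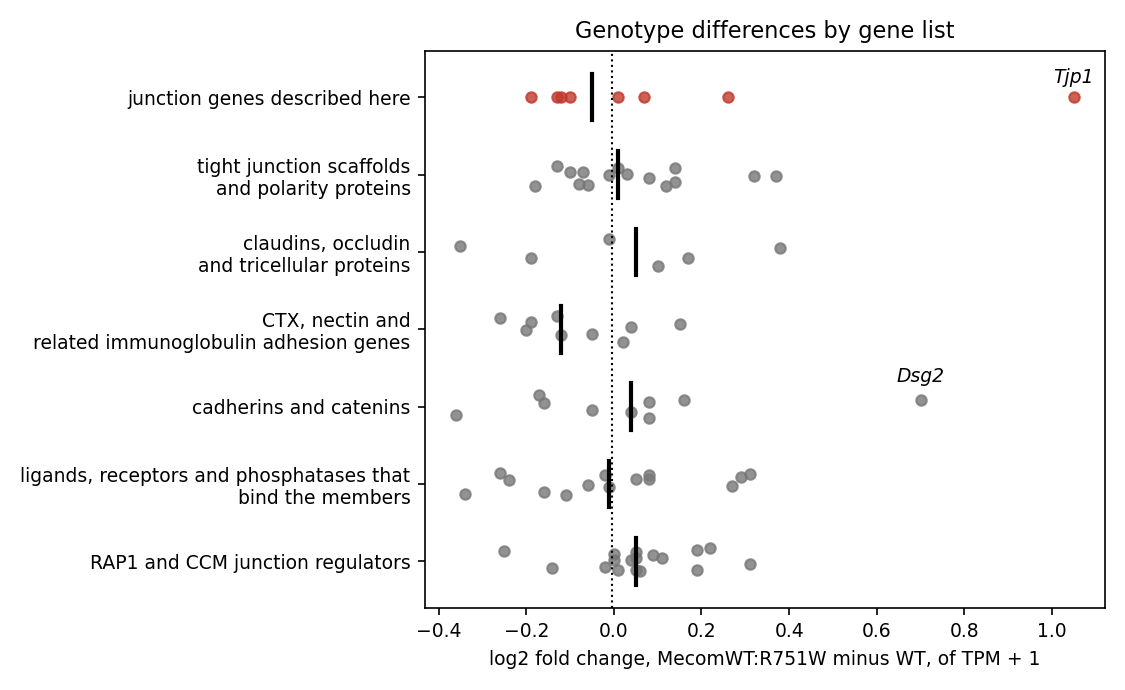
Log2 fold change of TPM + 1, MecomWT:R751W minus WT, for each tested gene of the junction lists, with a black bar at each list's median and a dotted line at the median of all genes tested (-0.0037). Tjp1 (1.05) lies far to the right of the other 7 junction genes (-0.19 to 0.26), and Dsg2 (0.70) is the other point beyond 0.5.

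Endothelial genes that stem cells also express were present as a group, with 17 of 19 genes tested, 6 above 0, 11 below and a median of -0.05. Over protein-coding rows 1 of the 17 passed higher and 1 lower, beside 0.351% higher and 0.807% lower of all such rows. Emcn, a surface mucin of endothelium and stem cells, was at 19.4, 19.3 and 25.1 TPM in MecomWT:R751W and at 13.7, 13.6 and 13.7 TPM in WT (log2 difference 0.59, SE 0.15, adjusted p = 0.0189 over protein-coding rows and 0.344 over all rows by limma). S1pr1, a sphingosine phosphate receptor that guides cells out of marrow, was at 10.2, 9.40 and 9.63 TPM in MecomWT:R751W and at 20.3, 12.3 and 14.5 TPM in WT. Its log2 difference was -0.61 (SE 0.16 and adjusted p = 0.0278 over protein-coding rows, SE 0.18 and adjusted p = 0.529 over all rows, by limma). The Emcn call held in 7 of 17 alternatives and was lost without MecomWT:R751W replicate 3 or without any single WT library (adjusted p from 0.00706 to 0.336 by limma). It was also lost, among others, when median-centred, quantile-normalized, rescaled to the protein-coding total or fitted with voom. The S1pr1 call held in 8 of 17 and was lost without WT replicate 1 or without any single MecomWT:R751W library (adjusted p from 0.014 to 0.657 by limma). It was also lost, among others, when median-centred, quantile-normalized or rescaled to the protein-coding total.

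Defining endothelial markers were sparse. Rows for 9 of 23 were analysed, 4 reached a mean of 1 TPM, and 0 passed in either fit. The summed level was 134, 120 and 146 TPM in MecomWT:R751W and 163, 135 and 133 TPM in WT, of which Adgrl4 made up most (103 ± 9.74 TPM in MecomWT:R751W and 116 ± 17.1 TPM in WT). Kdr, Plvap, Stab2, Mmrn2 and Clec14a each had a mean under 1 TPM, and Flt1, Cldn5, Gpihbp1 and Fabp4 were not analysed here. Megakaryocyte and platelet markers, whose cells also carry Pecam1, F11r and Jam3, summed to 270, 215 and 236 TPM in MecomWT:R751W and 307, 250 and 264 TPM in WT. Of that list 12 of 15 were tested, 2 above 0 and 10 below. Over protein-coding rows only, 1 of the 12 passed, as lower, beside 0.807% of all such rows. This was Thbs1, which encodes the platelet protein thrombospondin. It was at 3.79, 3.05 and 4.17 TPM in MecomWT:R751W and at 46.6, 15.5 and 3.29 TPM in WT, so WT replicate 3 lay within the MecomWT:R751W range. The log2 difference of Thbs1 was -1.69 (SE 0.26 over protein-coding rows and 0.59 over all rows), -0.86 without WT replicate 1 and -2.59 without WT replicate 3. Its call held in 8 of 17 alternatives and was lost, among others, without replicate 2 of either genotype.

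Of 12 markers of T and NK cells 5 had rows. They summed to 21.6, 20 and 19.2 TPM in MecomWT:R751W and 9.05, 9.67 and 10.1 TPM in WT. Nkg7 was the largest part of the sum in every library, at 9.51 to 12.1 TPM in MecomWT:R751W and 3.89 to 4.76 TPM in WT. Of the 4 tested, Nkg7, Cd4 and Thy1 passed over protein-coding rows (adjusted p = 9.9e-07, 0.0287 and 0.0497 by limma) and 0 passed over all rows. Among all protein-coding rows tested, 0.351% passed as higher and 0.807% as lower. The T cell kinase gene Lck was at 2.00, 1.63 and 1.62 TPM in MecomWT:R751W and at 1.54, 1.90 and 1.32 TPM in WT, with overlapping groups. The Cd4 groups overlapped too, and those of Nkg7 and Thy1 did not. These 2 of 4 stand beside 9.19% of all rows whose groups did not overlap (4.5% higher). The Nkg7 call held in 17 of 17 alternatives, the Cd4 call in 6 of 16 and the Thy1 call in 4 of 16. The Cd4 call was lost without MecomWT:R751W replicate 1 or 3 or WT replicate 1 or 2, and the Thy1 call without MecomWT:R751W replicate 2 or 3 or any single WT library. Both calls were also lost, among others, when median-centred, quantile-normalized, rescaled to the protein-coding total or fitted with voom. Klrb1c, an NK receptor, averaged under 1 TPM, and the CD3 chains Cd3d, Cd3e and Cd3g were not analysed here. Erythroid markers had 9 of 10 tested genes above 0 and a median of 0.48, where 8160 of all 16655 genes tested were above 0. The erythroid median depended on the setting, from 0.13 with a mean of at least 5 TPM to 1.18 with voom. Klf1, Car1, Ermap and Rhd passed over protein-coding rows, 4 of the 10, beside 0.351% of all such rows that passed as higher. These 4 were low, with means of 1.81, 0.829, 0.773 and 0.69 TPM in WT and 4.16, 4.44, 2.58 and 2.34 TPM in MecomWT:R751W. Car1 was at 1.71, 8.93 and 2.69 TPM in MecomWT:R751W replicates 1, 2 and 3. The erythroid sum, mostly Car2, was 376, 306 and 313 TPM in MecomWT:R751W and 381, 310 and 323 TPM in WT. Klf1 and Rhd no longer passed without MecomWT:R751W replicate 1, and Klf1, Car1 and Ermap no longer passed without replicate 2 of either genotype. The calls held in 8 of 16 alternatives for Klf1, 9 of 16 for Car1, 9 of 16 for Ermap and 10 of 16 for Rhd, and all 4 were lost when median-centred, quantile-normalized, rescaled to the protein-coding total or fitted with voom. Of 9 epithelial markers 3 were tested. Krt8, a keratin, was at 2.38, 1.46 and 1.58 TPM in MecomWT:R751W and at 0.886, 0.270 and 0.452 TPM in WT and passed over protein-coding rows (adjusted p = 0.0158 by limma), a call that held in 8 of 15 alternatives, not without replicate 2 of either genotype nor under those 4 settings, while its partner Krt18 was at 49.5 ± 2.79 TPM in MecomWT:R751W and 49.7 ± 4.91 TPM in WT. The part of these markers in the Tjp1 difference was not tested.

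**Figure D4:**
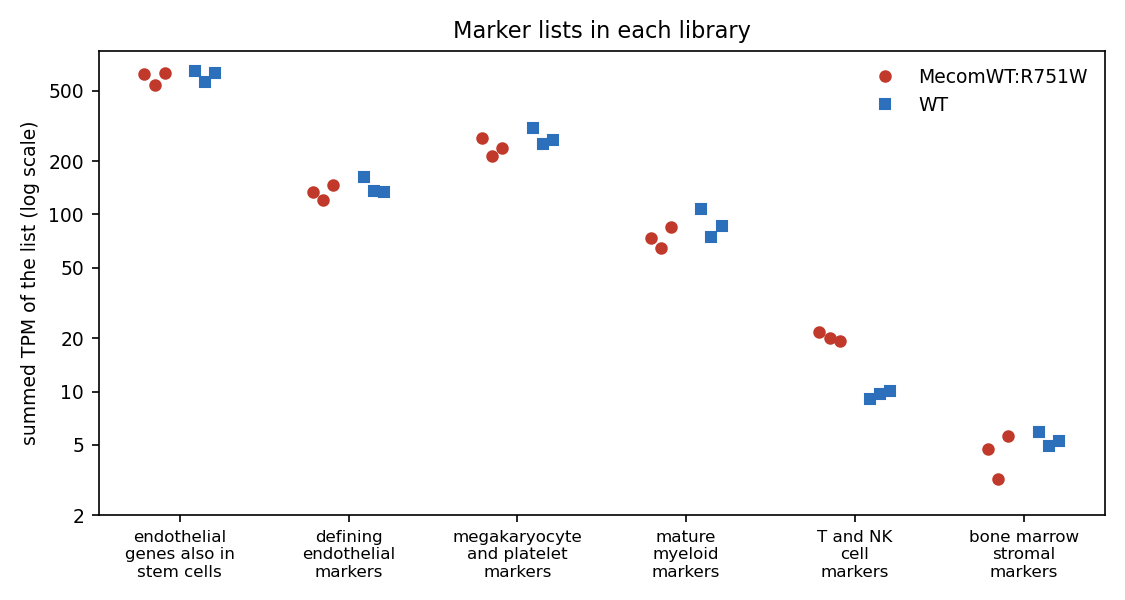
Summed TPM of each marker list on a log axis in the 3 MecomWT:R751W libraries (red circles) and the 3 WT libraries (blue squares). The summed T and NK cell markers are higher in each MecomWT:R751W library (19.2 to 21.6 TPM) than in any WT library (9.05 to 10.1 TPM). Nkg7 is the largest part of that sum in every library. The groups of the other lists overlap.

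Mature myeloid markers had 5 of 12 tested, all 5 below 0 with a median of -0.20 and 0 passed, and their sum was mostly Lyz2, at 67.1 ± 9.34 TPM in MecomWT:R751W and 77.0 ± 9.68 TPM in WT. The groups of all 5 overlapped. Their median ran from -0.30 to -0.11 with 1 library left out and was -0.12 without WT replicate 1. Ngp was at 12.2, 3.35 and 1.00 TPM and Itgam at 8.11, 2.94 and 2.64 TPM in WT replicates 1, 2 and 3. Stromal markers had 2 of 12 tested and summed to 4.76, 3.21 and 5.60 TPM in MecomWT:R751W and 5.91, 4.91 and 5.26 TPM in WT. Of 8 B cell markers, Cd79b alone was tested and did not pass. The sort gate and stem cell genes Kit (157 ± 16.8 TPM in MecomWT:R751W, 181 ± 18 TPM in WT), Meis1 (149 ± 14.3 TPM in MecomWT:R751W, 150 ± 12.8 TPM in WT) and Hlf were abundant, and 0 of the 12 genes of that list passed in either fit.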

How the data were processed

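RNA of 6 libraries of sorted SLAM-LSK cells was analysed, 3 of MecomWT:R751W and 3 of WT mice. Per the labels' protocols, sorting was into TRIZOL-LS. More than one library kit is described, chosen by input. The one used here, the aligner, the counter, the strand setting and the annotation are not stated there. Per the submitters' processing notes, the build was mm10. They also name DESeq2 without saying what it did. The authors deposited 1 table of TPM for 18465 genes, and each column sums to 1000000. TPM keeps no depth, but the values of a gene, each divided by a library factor, were proportional to integers for 100.0% of genes within 0.001 reads (checked on simulated tables). Lengths of small RNA genes fixed the scale, and the implied totals were 10908069 to 12753202 reads per library. They serve for depth and for 1 alternative, and counting errors cover counting only.

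Genotypes were compared with limma 3.58.1 under R 4.3.3, fitted on log2(TPM + 1) with genotype alone and a variance trend, two-sided, for genes that averaged 1 TPM or more. It was run over all rows and over protein-coding rows by a RefSeq table of GRCm38.p6, the assembly of mm10, to which all 18465 symbols matched. It was tested on simulated data. Alternatives changed the pseudocount, the filter, the scaling, library weights, the variance estimate and the replicate block, and left out each library in turn. The members, lists and tests were chosen with earlier results of these data known. The text names all members, up to 4 genes of highest level per list, and up to 4 that passed. Cldn22, Ocln, Pard3b, Tek, Itgb2 and markers with a mean under 1 TPM were named after their values were seen. Figures were drawn with Python 3.11.15 and matplotlib 3.10.9.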

Additional observations from a re-analysis of the deposited data

How the results depend on the processing

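The direction of the Tjp1 difference held in all 18 alternatives, from 0.67 (pseudocount 5) to 1.21, and that of Tjp3 in all 17 in which it was tested (0.11 to 0.44). Esam ran from -0.08 to 0.06, Tie1 from -0.00 to 0.16, Pecam1 from -0.25 to 0.02, F11r from -0.19 to -0.00, Jam2 from -0.28 to -0.04 and Jam3 from -0.23 to -0.04. Jam2, Jam3 and Tjp3 fell below the filter of 5 TPM. Counts of called genes depended on the setting, and the cause was not tested. Over all rows, limma called 1 gene higher and 1 lower with a mean of at least 5 TPM, 1 lower with array weights, and 4 higher and 1 lower with robust variance moderation, an alternative chosen after seeing the data. Leaving out 1 library gave 0 to 6 higher and 0 to 9 lower, with calls without MecomWT:R751W replicate 1 (4 higher, 9 lower), WT replicate 2 (1 and 1) and WT replicate 3 (6 and 2). Over protein-coding rows the 40 higher genes became 21 with a mean of at least 5 TPM, 7 when median-centred, 7 with quantile normalization, 67 with array weights and 8 after rescaling, and ran from 17 (without WT replicate 2) to 63 (without WT replicate 3), with 25 without MecomWT:R751W replicate 1. The 92 lower genes became 48 with no filter, 4 when median-centred, 5 with quantile normalization, 9 after rescaling and 55 with voom, and ran from 26 (without MecomWT:R751W replicate 2) to 135 with 1 library left out, with 40 without WT replicate 1 and 35 without WT replicate 2. The median of the scaffold and polarity list ran from -0.07 (without WT replicate 2) to 0.10 (without MecomWT:R751W replicate 2). With the replicate block the protein-coding fit called 5 higher and 24 lower: the calls of Dsg2, Emcn, S1pr1, Thbs1, Cd4, Thy1, Klf1, Car1, Ermap, Rhd and Krt8 were lost and that of Nkg7 held. Deviations of same-numbered libraries correlated at 0.14, 0.01 and 0.11, and WT replicate 2 correlated best with another number, so the numbers were not taken as pairs, although the protein-coding share of TPM ran in the same order of numbers in both genotypes. Depth limits Jam2 most.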
